A study of Mus musculus with 76 samples.

Results

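The 10 genes described here encode the proteins that brake the cell division cycle together with p53 and its closest partners, and they were taken by gene name from tables of 55487 genes. Cdkn1a, Cdkn1b and Cdkn1c encode the Cip/Kip inhibitors p21, p27 and p57. Cdkn2a, Cdkn2b, Cdkn2c and Cdkn2d encode the Ink4 inhibitors p16 (with the overlapping ARF protein), p15, p18 and p19. Trp53 encodes the transcription factor p53, Mdm2 the ubiquitin ligase that degrades it, and Gadd45a a stress-induced protein that p53 can switch on.

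RNA was sequenced from mice carrying the SOD1-G93A transgene, a mutant human superoxide dismutase that causes motor neuron disease, and from wild-type (WT) mice, whose strain is also labelled SOD1-G93A. Of 76 libraries, 46 came from 4 kinds of cell sorted out of the thymus at d30 or d120: cortical thymic epithelial cells (cTEC), medullary ones (mTEC), CD4 T cells and regulatory T cells (Treg). Whole thymus and whole inguinal lymph node were taken at d120, with 6 libraries each. A further 18 libraries came from cells labelled Treg and kept in vitro, either without activation (T0) or after activation (T2 and T20, for which the labels give no unit of time). Each genotype had 3 libraries in each of these sets, except that WT cTEC and WT CD4 cells at d30 had 2. No label says which replicates came from separate animals, so p-values measure the spread between these libraries, which may be technical.

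The Cip/Kip proteins bind cyclin-CDK complexes, with CDK2 complexes as their main targets, and the Ink4 proteins bind CDK4 and CDK6 alone and keep them from pairing with D-type cyclins. Either brake keeps Rb proteins bound to E2F factors and holds the cell in G1. In T cells p27 is known for holding resting cells out of cycle and is degraded after antigen receptor stimulation, and p53 raises transcription of Cdkn1a, Mdm2 and Gadd45a after DNA damage.

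In GRCm38 coordinates (GENCODE vM21), Cdkn2a (chr4:89274471-89294653), Cdkn2b (chr4:89306299-89311039) and Cdkn2c (chr4:109660876-109667189) lie on the minus strand of chromosome 4, the first pair side by side in the Ink4 locus. Cdkn1b (chr6:134920401-134925513, plus strand) and Gadd45a (chr6:67035096-67037457, minus strand) share chromosome 6. The others are Cdkn1a (chr17:29090976-29100727, plus), Cdkn1c (chr7:143458339-143461050, minus), Cdkn2d (chr9:21288410-21291407, minus), Trp53 (chr11:69580359-69591873, plus) and Mdm2 (chr10:117688875-117710758, minus). Values are given per gene, and how reads were counted over each gene is not stated. Exon bases of Cdkn1a, Cdkn1c and Gadd45a are shared with a gene on the opposite strand, and reads of such a pair cannot be told apart where strand was not used, which is not given in the sources used here.

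Total counts per library ranged from 15135 to 36919936 in mTEC, from 1269529 to 16776303 in cTEC, from 1944589 to 34151147 in Treg, from 837050 to 14047347 in CD4 cells, from 171619 to 19699330 in the cultures and from 63887 to 894958 in lymph node. The depth of the whole thymus table is unknown because it holds TPM. 7 libraries had fewer than 300000 counts: 4 cultures, 2 of lymph node and SOD1-G93A mTEC replicate 1 at d30. SOD1-G93A cTEC replicate 3 at d120 had counts in 7627 genes only, and several of the 10 genes were at 0 there. Reads assigned to Sod1 were higher in every library labelled SOD1-G93A than in every WT library in 12 of 13 sets. In mTEC at d30 the lowest library labelled SOD1-G93A, replicate 1, had 33.6 CPM (counts scaled to a library of 1000000) and the highest WT library 35.2 CPM. That replicate 1 is the library with 15135 counts in all. Its levels rest on very few reads, and its Sod1 level does not settle its label. At d30 the epithelial labels were met, with Aire at a median of 956 CPM in mTEC and 8.45 CPM in cTEC, and Psmb11 at 1005 CPM in cTEC and 16.2 CPM in mTEC. At d120 these genes still separated the populations. Aire ran from 0 to 19.5 CPM in cTEC and from 766 to 2070 CPM in mTEC. Psmb11 ran from 11.2 to 331 CPM in cTEC and from 0 to 7.91 CPM in mTEC. The summed level of 7 mTEC markers at d120 did not: in cTEC (1622 to 7613 CPM) it overlapped that in mTEC (4545 to 9814 CPM). The CD4 libraries carried Cd8a as well as Cd4, the medians being 283 CPM for Cd8a and 164 CPM for Cd4 at d30, then 232 CPM and 96.9 CPM on d120. These CPM do not allow for gene length, so the 2 genes are not ranked. Sorted Treg carried Cd8a too, with medians of 162 CPM at d30 and 158 CPM at d120. The unactivated T0 cultures are labelled Treg but titled Tregdiff, as are T2 and T20. Foxp3, the defining factor of Treg, had a median of 6.92 CPM at T0, below the 50.3 CPM of sorted Treg and the 16.5 CPM of sorted CD4 cells at d30, against 109 CPM at T2. Whether the T0 cells were already Treg is therefore not settled. If the title stands for Treg differentiation, that and activation cannot be told apart between T0 and the later times. The cTEC libraries at d30 also carried T cell RNA, with a median of 177 CPM for Cd3e, against 13.3 CPM at d120.

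The sequences just before the transcription starts are given for Cdkn1a, Cdkn1b, Cdkn2c and Gadd45a, the members whose test was passed at both T2 and T20 under all 25 other settings tried. Each is the 250 bases before a RefSeq start, in GRCm38.p6 and read 5′ to 3′ on the gene's strand. The Cdkn1a windows are chr17:29090729-29090978 (plus strand) and chr17:29093519-29093768 (plus strand), and their starts lie 2790 bases apart. Those of the others are chr6:134920151-134920400 (plus strand) for Cdkn1b, chr4:109665373-109665622 and chr4:109666757-109667006 (both minus strand) for Cdkn2c, and chr6:67037408-67037657 (minus strand) for Gadd45a. Capitals mark matches, on either strand, to 7 kinds of motif. A p53 response element was read as 2 half-sites RRRCWWGYYY with no spacer, where R is A or G, W is A or T and Y is C or T. At most 1 mismatch was allowed, not at the C or G of either half-site. All the others had to match in full. An E2F motif was read as TTTGGCG, in another version as TTTCGCG, and in the last version as TTTCCCG. A Foxo motif was read as GTAAACA and an AP-1 motif, bound by Fos and Jun proteins, as TGANTCA. The promoter boxes were the CCAAT box, the GC box with the letters GGGCGG, and the TATA box with the letters TATAAA.
Cdkn1a first start: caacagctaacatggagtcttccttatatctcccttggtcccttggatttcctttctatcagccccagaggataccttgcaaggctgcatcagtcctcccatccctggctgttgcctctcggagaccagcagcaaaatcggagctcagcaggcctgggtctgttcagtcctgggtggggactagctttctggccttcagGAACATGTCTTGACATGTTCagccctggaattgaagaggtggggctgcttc
Cdkn1a second start: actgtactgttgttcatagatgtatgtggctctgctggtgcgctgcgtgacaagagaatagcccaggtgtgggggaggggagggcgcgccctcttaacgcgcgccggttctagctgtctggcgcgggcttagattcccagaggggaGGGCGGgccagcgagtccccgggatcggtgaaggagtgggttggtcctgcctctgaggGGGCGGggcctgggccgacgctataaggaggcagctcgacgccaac
Cdkn1b: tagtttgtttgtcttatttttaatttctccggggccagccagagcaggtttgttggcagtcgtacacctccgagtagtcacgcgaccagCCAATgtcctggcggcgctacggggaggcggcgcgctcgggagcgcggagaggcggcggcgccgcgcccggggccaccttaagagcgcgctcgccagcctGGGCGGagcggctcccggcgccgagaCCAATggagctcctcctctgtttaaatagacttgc
Cdkn2c first start: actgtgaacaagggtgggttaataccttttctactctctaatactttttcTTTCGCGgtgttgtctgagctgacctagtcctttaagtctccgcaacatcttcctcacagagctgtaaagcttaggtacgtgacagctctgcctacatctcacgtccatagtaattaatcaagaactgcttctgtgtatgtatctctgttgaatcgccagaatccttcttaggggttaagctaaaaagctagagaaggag
Cdkn2c second start: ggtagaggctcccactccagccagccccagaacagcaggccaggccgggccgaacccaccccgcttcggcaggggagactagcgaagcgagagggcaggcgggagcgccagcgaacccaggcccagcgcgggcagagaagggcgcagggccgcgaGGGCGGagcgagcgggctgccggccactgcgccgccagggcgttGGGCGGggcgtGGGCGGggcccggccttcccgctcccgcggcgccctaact
Gadd45a: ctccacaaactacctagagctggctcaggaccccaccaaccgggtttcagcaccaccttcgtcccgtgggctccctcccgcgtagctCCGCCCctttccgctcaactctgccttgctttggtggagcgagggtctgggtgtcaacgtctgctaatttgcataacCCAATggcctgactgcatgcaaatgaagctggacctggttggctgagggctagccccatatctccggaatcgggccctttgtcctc
The Cdkn1a window of the first start holds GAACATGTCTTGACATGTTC, a match to the p53 element that lies 51 to 32 bases before the start, and 0.0579% of 32841 such windows hold a match. That of the second start has only GC boxes, found in 32.7% of windows. The Cdkn1b window has a pair of CCAAT boxes, a motif found in 33.9% of windows, and 1 GC box. For Cdkn2c the first window holds TTTCGCG (E2F motifs are in 4.57% of windows) and the second 3 GC boxes, while Gadd45a has 1 CCAAT box and 1 GC box. No marked matches overlap each other in these windows. Foxo, TATA and AP-1 motifs, held by 3.17%, 12.4% and 4.46% of windows, had no match in the 6 printed. Such matches describe the letters only. Windows were found for 9 of the 10 genes, all but Cdkn1c.

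Activated cultures carried much more p21 RNA and much less p27 RNA than unactivated ones. Cdkn1a and Cdkn2c (p18) were higher at both T2 and T20 than at T0, while Cdkn1b and Gadd45a were lower. Mdm2 was called lower at both times too, but that call was lost under 8 of 25 other settings at T2 and 17 of 25 at T20. Of the 7 members tested, 5 passed at T2 and 5 at T20, against 58.1% and 58.2% of all 11787 genes. Libraries did not overlap between times for 3 members at T2 and 4 at T20, against 27.6% and 34.5% of genes. A call is an adjusted p under 0.05 in edgeR's quasi-likelihood test, adjusted over all genes, and a log2 change is the log2 ratio of CPM, given with its standard error.

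Cdkn1a, whose protein blocks CDK2 complexes, was close to absent before activation. At T0 its level was 2.68, 0.582 and 1.22 CPM in the SOD1-G93A libraries and 0, 11.6 and 0.981 CPM in the WT libraries, 33 counts in all. At T2 it was 34.9, 85.3 and 17.4 CPM in SOD1-G93A and 39.3, 158 and 71.6 CPM in WT. At T20 it was 55.5, 56.1 and 67.7 CPM in SOD1-G93A and 69.8, 79.9 and 73.4 CPM in WT. Every activated library lay above every unactivated one, and the 6 libraries at T20 lay closer together than those at T2. The log2 change from T0 was 4.53 ± 0.52 at T2 (edgeR adjusted p = 1.10e-06) and 4.47 ± 0.52 at T20 (edgeR adjusted p = 1.65e-06). Without WT replicate 2 of T0, the library at 11.6 CPM, these became 6.04 and 5.97.

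Cdkn1b, the p27 gene, went the other way. Its level at T0 was 387, 269 and 258 CPM in SOD1-G93A and 976, 271 and 361 CPM in WT, with 1 WT library far above the other 5. At T2 it was 42.5, 19.4 and 60.9 CPM in SOD1-G93A and 78.6, 18.4 and 31.2 CPM in WT, and at T20 it was 42.6, 32.7 and 27.1 CPM in SOD1-G93A and 46.7, 25.4 and 32.5 CPM in WT. No activated library reached the lowest unactivated one. The log2 change was -3.47 ± 0.39 at T2 (edgeR adjusted p = 9.73e-07) and -3.48 ± 0.38 at T20 (edgeR adjusted p = 8.95e-07). Without WT replicate 1 of T0, the library at 976 CPM, these became -2.83 and -2.86. Per exon length, a scale on which genes can be compared, Cdkn1b had the highest level of the 10 genes at T0, with 235 ± 132 TPM computed here (SD, n = 6), and ranked 6 at T2 and at T20, with 26.2 ± 15 and 19.8 ± 5.8 TPM.

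Cdkn2c, an Ink4 inhibitor of CDK4 and CDK6, ran from 3.56 to 16 CPM with a median of 8.32 CPM over the 6 libraries at T0. It ran from 26.9 to 56.1 CPM (median 45.2 CPM) at T2 and from 18.7 to 82.2 CPM (median 40.7 CPM) at T20, so that activated and unactivated libraries did not overlap. Its log2 change was 2.05 ± 0.34 at T2 (edgeR adjusted p = 5.19e-05) and 2.21 ± 0.34 at T20 (edgeR adjusted p = 2.76e-05). Cdkn2d, the other Ink4 gene tested, ran from 32.0 to 57.0 CPM at T0, from 26.9 to 73.0 CPM at T2 and from 42.0 to 118 CPM at T20. Those ranges overlapped, and its changes of 0.04 ± 0.27 and 0.51 ± 0.27 did not pass (edgeR adjusted p = 0.913 and 0.104). At T20 Cdkn2d passed under 4 of 25 other settings, with changes up to 0.96, among them 0.80 without SOD1-G93A replicate 3 of T2, 0.85 without WT replicate 2 of T20 and 0.76 without SOD1-G93A replicate 3 of T0. Cdkn1c, Cdkn2a and Cdkn2b stayed below the filter on low counts in the cultures, where the highest library of any of them had 11.2 CPM.

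Gadd45a ran from 0 to 30.4 CPM at T0 with a median of 19.2 CPM, the 0 standing in WT replicate 1. It ran from 0 to 7.35 CPM (median 2.18 CPM) at T2 and from 1.29 to 9.34 CPM (median 3.62 CPM) at T20. All but that 1 library at T0 lay above every activated library. The log2 change was -2.68 ± 0.58 at T2 (edgeR adjusted p = 0.000741) and -2.49 ± 0.60 at T20 (edgeR adjusted p = 0.00165). Its relatives moved the opposite way: Gadd45g rose by 3.66 ± 0.43 and Gadd45b by 2.93 ± 0.38 at T2 on the log2 scale.

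Mdm2 ran from 68.0 to 87.3 CPM at T0, from 26.1 to 75.1 CPM at T2 and from 50.8 to 60.9 CPM at T20. The T0 and T2 ranges overlapped and the T0 and T20 ranges did not. Its changes of -0.64 ± 0.20 (edgeR adjusted p = 0.0102) and -0.50 ± 0.20 (edgeR adjusted p = 0.0389) were lost without the 4 cultures under 300000 counts, where they came to -0.22 (edgeR adjusted p = 0.371) and -0.21 (edgeR adjusted p = 0.461). Leaving out 1 library took away the T2 call for 6 libraries: SOD1-G93A replicate 3 of T0, T2 or T20 (-0.35, -0.27 and -0.35), WT replicates 1 and 3 of T0 (-0.38 and -0.36) and WT replicate 2 of T20 (-0.38). At T20 the call was lost under 12 such omissions, down to -0.22 without SOD1-G93A replicate 3 of T2. Trp53 itself ran from 67.7 to 113 CPM at T0, from 78.2 to 152 CPM at T2 and from 88.8 to 132 CPM at T20, and its changes of 0.34 ± 0.19 and 0.24 ± 0.19 did not pass (edgeR adjusted p = 0.137 and 0.287). Without the 4 low cultures they came to 0.81 (edgeR adjusted p = 0.00341) and 0.55 (edgeR adjusted p = 0.0450), and without SOD1-G93A replicate 3 of T2 alone to 0.71 and 0.53. Both calls were also gained without WT replicate 2 of T20 (0.61 and 0.51), and that at T2 without SOD1-G93A replicate 3 of T20 (0.61), without WT replicate 3 of T0 (0.66) and with DESeq2 (0.41). The number of members called stayed at 5 at both times without the low cultures, with Trp53 in and Mdm2 out.

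**Figure D1:**
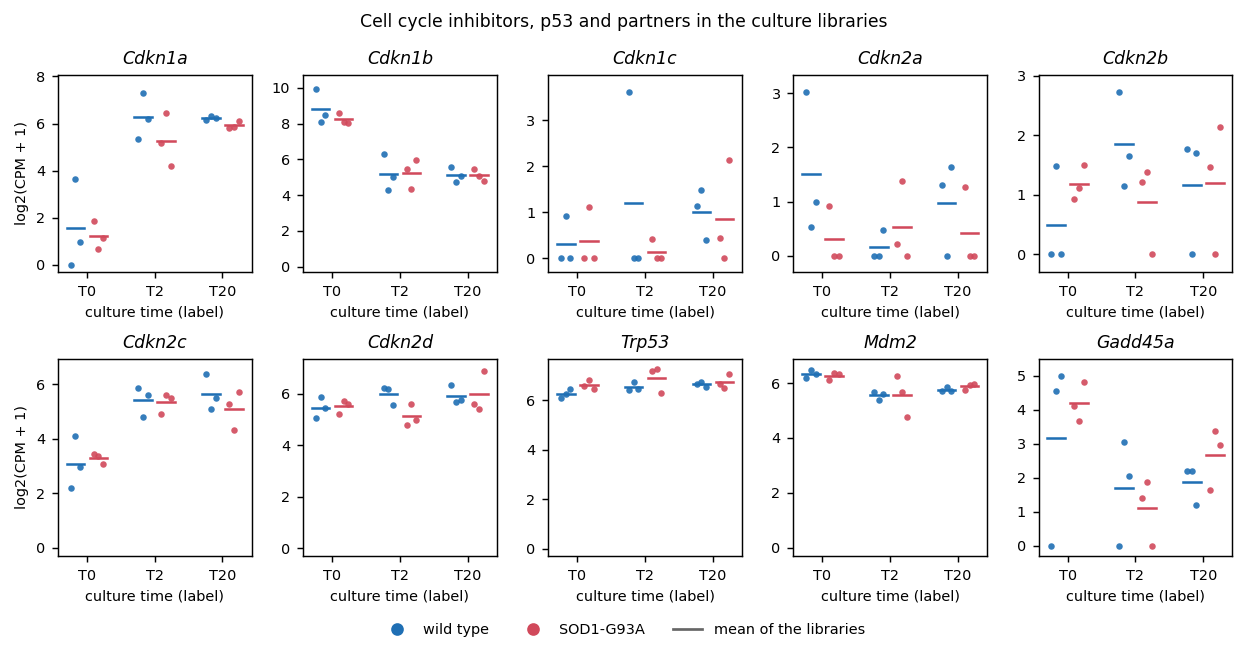
Level as log2(CPM + 1) (vertical axis) of each of the 10 members in the cultures at T0, T2 and T20 (horizontal axis), 1 point per library, blue for WT and red for SOD1-G93A, with a line at the mean of the 3 libraries. Cdkn1a and Cdkn2c libraries at T2 and T20 all lie above those at T0, and Cdkn1b libraries all lie below.

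Between T20 and T2 edgeR called 0 of the 7 members and 0 of the 11787 genes (0%). At an unadjusted p under 0.05 there were 457 such genes and none of the 7 members, and DESeq2 called 3 genes and no member. The largest difference among the members was 0.48 ± 0.27 for Cdkn2d (edgeR adjusted p = 1).

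Genes that carry out the cell cycle rose with activation. Of 20 S phase and mitotic genes, 19 rose at T2 and all 20 at T20, with a median log2 change of 3.83 at T2 against -0.24 for all genes tested. Over all genes 23.8% rose and 34.3% fell at T2, and 24.1% rose and 34.1% fell at T20. Cdk1, the mitotic kinase, rose by 4.58 ± 0.30, Aurkb by 4.38 ± 0.30, Rrm1 by 3.98 ± 0.31 and Ccnb2 by 3.89 ± 0.31, and Mcm7, named after its value was seen, did not pass at 0.40 ± 0.21. Among 8 G1 cyclins and kinases 5 rose and 1 fell at T2: Ccnd2 (2.62 ± 0.26), Ccne2 (2.62 ± 0.35), Cdk6 (3.25 ± 0.46) and Ccne1 (2.56 ± 0.39) rose, as did Cdk4, and Ccnd3 fell by 1.30 ± 0.25 (these last named after their values were seen). In the Rb and E2F list 6 of 11 rose, with Tfdp1 at 3.32 ± 0.23 and E2f3 at 2.55 ± 0.28, and Rb1 fell by 1.84 ± 0.29.

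Known targets of p53 split in direction. Of 18 tested, 9 rose and 5 fell at T2, and 9 rose and 5 fell at T20, with median changes of 0.78 and 0.61. Over all genes 23.8% rose and 34.3% fell at T2, and 24.1% and 34.1% at T20. Phlda3 rose by 4.36 ± 0.60 and Plk2 by 4.07 ± 0.60, while Sesn1, a stress-induced regulator of growth signalling, fell by 3.82 ± 0.33 and the antiproliferative gene Btg2 by 3.09 ± 0.41. Bbc3, Trp53inp1 and Rrm2b were the other 3 that fell at T2 (named after their values were seen). Among 10 regulators of p53, 3 rose and 2 fell at T2. Those 3 were the checkpoint kinases Chek1 (4.08 ± 0.44) and Chek2 (1.64 ± 0.41) with Hipk2 (1.53 ± 0.24), and those that fell were Mdm4 (-1.12 ± 0.23), an inhibitor of p53, and Usp7 (-0.86 ± 0.23, named after its value was seen).

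In the list around p27 turnover, Cks1b, which helps the ligase that degrades p27, rose by 3.49 ± 0.43 at T2, and the Foxo factors, which can switch on Cdkn1b, fell: Foxo4 by 1.91 ± 0.38, Foxo3 by 1.26 ± 0.29 and Foxo1 by 0.54 ± 0.20. With Skp1a at 0.74 ± 0.25, that made 2 higher and 3 lower of 8, near the 23.8% and 34.3% of all genes. Skp2 did not pass at 0.56 ± 0.48 (Foxo1 and Skp2 were named after their values were seen). The part of these genes in the fall of Cdkn1b was not tested. Of 10 Polycomb genes, whose complexes silence the Ink4 locus, 1 rose and 4 fell at T2, against the same 23.8% and 34.3%. They were led by Cbx7 at -3.20 ± 0.38 and Ezh2 at 1.95 ± 0.30. Rnf2 (-1.23 ± 0.24) and Cbx8 (-1.52 ± 0.38) were lower too, as was Ring1 (-1.06 ± 0.31, named after its value was seen).

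Levels of cell type markers also differed between culture times. Il2ra, 1 of the 6 Treg markers, had medians of 24.9 CPM at T0 and 2068 CPM at T2. The summed level of 6 Treg markers ran from 75.6 to 432 CPM at T0, from 1555 to 4350 CPM at T2 and from 1594 to 3574 CPM at T20. That of 7 markers of double-positive thymocytes, the immature cells of the cortex, ran from 159 to 1168 CPM at T0 and from 8.69 to 152 CPM at T2, and that of 4 fibroblast markers from 62.4 to 150 CPM at T0 and from 0 to 47.8 CPM at T2. Their part in the differences was not tested. In bulk RNA, fewer cells of a type and less RNA per cell cannot be told apart.

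**Figure D2:**
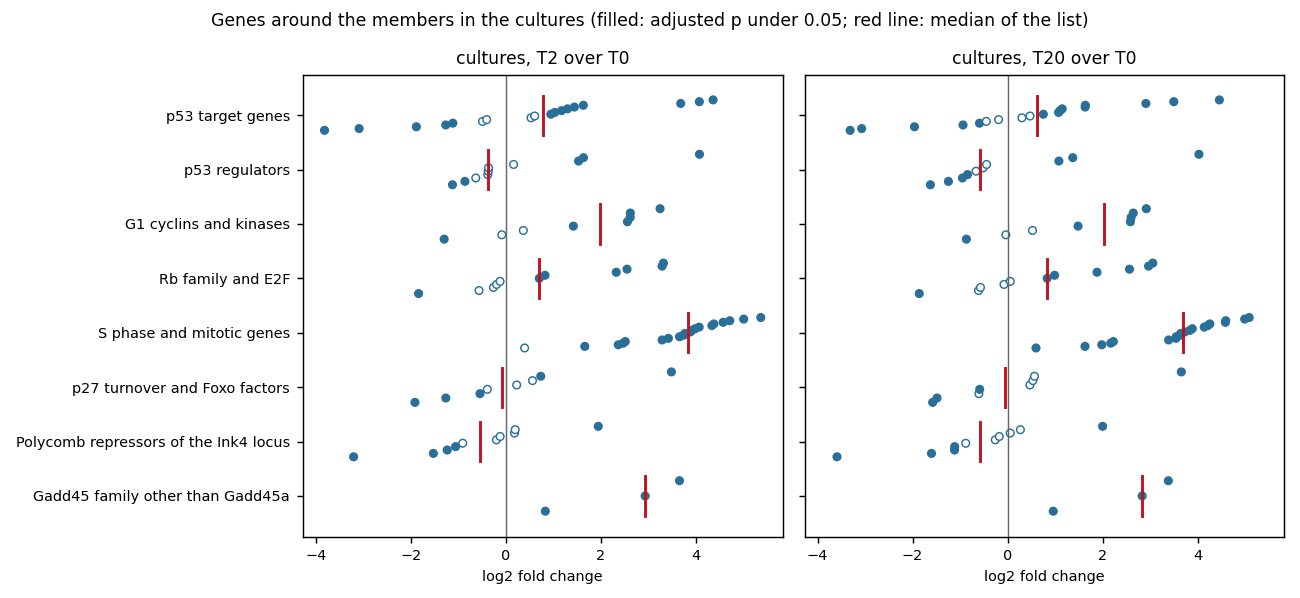
Log2 change from T0 (horizontal axis) of each tested gene in the pathway lists, at T2 and at T20, with a red line at the median of each list and filled points where edgeR's adjusted p was under 0.05. The S phase and mitotic genes all lie above 0, with medians of 3.83 and 3.69, while p53 targets lie on both sides of 0.

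In the sorted cells most members differed in mean level between epithelium and T cells. The pooled epithelial and T cell libraries nevertheless overlapped for every member at both days, except Cdkn1b at d30. On the scale of all 46 sorted libraries together, 7 of 10 members differed between epithelial cells (cTEC and mTEC) and T cells (Treg and CD4) at d30 and 8 of 10 at d120, against 38.0% and 43.2% of 21733 genes (26.0% higher and 12% lower at d30, 20.6% and 22.6% at d120). Cdkn1a, Cdkn1c, Cdkn2a, Cdkn2b and Gadd45a were higher in epithelium at both days, Cdkn1b and Cdkn2d were higher in T cells at both, and Mdm2 was higher in epithelium at d120. Leaving out the libraries numbered 2 brought the d30 count from 7 to 2 (Cdkn1c and Cdkn2b), and leaving out the libraries of low depth or few genes brought it to 10.

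Cdkn1a in cTEC ran from 116 to 453 CPM at d30 (n = 5) with a median of 199 CPM, and from 313 to 827 CPM (median 478 CPM, n = 6) at d120. In mTEC it ran from 166 to 241 CPM (median 187 CPM) at d30 and from 160 to 458 CPM (median 289 CPM) at d120. Without the library of 15135 counts the highest level of Cdkn1a in mTEC at d30 was 203 CPM. In Treg Cdkn1a ran from 102 to 161 CPM (median 128 CPM) at d30 and from 46.6 to 84.8 CPM (median 58.0 CPM) at d120, and in CD4 cells from 34.6 to 147 CPM (median 83.0 CPM) and from 50.9 to 225 CPM (median 71.3 CPM). The epithelial and T cell ranges met at both days. The log2 difference, epithelial minus T, was 1.02 ± 0.27 at d30 (edgeR adjusted p = 0.00190) and 2.36 ± 0.26 at d120 (edgeR adjusted p = 5.17e-10). Per exon length Cdkn1a had the highest level of the 10 genes in cTEC, with 172 ± 74 TPM at d30 (SD, n = 5) and 275 ± 100.4 TPM at d120 (SD, n = 6).

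Cdkn1c, an imprinted gene expressed from the maternal copy, was a gene of mTEC. Its mTEC libraries at d30 ran from 379 to 640 CPM with a median of 616 CPM, against 6.43 to 78.5 CPM (median 18.2 CPM) in cTEC, 3.55 to 27.3 CPM in Treg and 4.0 to 8.06 CPM in CD4 cells. At d120 mTEC ran from 68.5 to 308 CPM (median 150 CPM) and no other population passed 27.1 CPM. Every mTEC library therefore lay above every library of the other populations at d120, and at d30 too. mTEC exceeded cTEC by 4.84 ± 0.64 on the log2 scale at d30 (edgeR adjusted p = 2.26e-06) and by 3.68 ± 0.54 at d120 (edgeR adjusted p = 4.20e-06). Plagl1, another imprinted gene, which encodes a factor known to act on Cdkn1c, was higher in mTEC than in cTEC by 4.74 ± 0.61 at d30 and by 4.16 ± 0.53 at d120.

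Cdkn1b was low throughout the sorted cells compared with the unactivated cultures. Its median on the joint scale was 20.8 CPM in cTEC, 11.8 CPM in mTEC, 33.8 CPM in Treg and 30.6 CPM in CD4 cells at d30, and 13.3, 12.2, 24.4 and 34.5 CPM at d120. Epithelial cells were lower than T cells by 1.06 ± 0.39 at d30 (edgeR adjusted p = 0.0264) and by 1.11 ± 0.36 at d120 (edgeR adjusted p = 0.0105), and each of these was lost under 3 of 12 other settings. At d30 every epithelial library lay below every T cell library. Treg and CD4 ranges overlapped at both days.

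Of the Ink4 genes, Cdkn2b and Cdkn2a were higher in epithelium. Cdkn2b ran from 46.6 to 138 CPM (median 107 CPM) in mTEC at d120, from 0 to 41.7 CPM (median 11.7 CPM) in cTEC, from 0.511 to 7.59 CPM in Treg and from 0 to 5.54 CPM in CD4 cells, with no overlap between mTEC and the others. Epithelial cells exceeded T cells by 3.48 ± 0.58 at d30 (edgeR adjusted p = 5.50e-06) and by 4.12 ± 0.57 at d120 (edgeR adjusted p = 1.00e-07). Cdkn2a stayed low everywhere, with medians of 0.677 CPM at d30 and 2.86 CPM at d120 in mTEC and no library above 6.04 CPM. It had no count in any of the 11 CD4 libraries, 1 count over the 6 Treg libraries at d30 and 9 at d120, so no fold is given for it. Epithelial against T cells was called at both days (edgeR adjusted p = 0.000958 and 0.000674), though at d120 the counts were mainly those of mTEC, since 4 of 6 cTEC libraries were at 0. The d30 call was lost without the libraries numbered 2 (edgeR adjusted p = 0.121), and the d120 call without those numbered 1 (edgeR adjusted p = 1) and with a shared dispersion (edgeR adjusted p = 0.0596).

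Cdkn2d, the p19 gene, was the T cell gene of the family. Its median was 81.3 CPM in Treg and 101 CPM in CD4 cells at d30, against 50.2 CPM in cTEC and 19.9 CPM in mTEC. At d120 those medians were 112, 93, 33.8 and 24.8 CPM. Epithelial cells were lower by 1.64 ± 0.36 at d30 (edgeR adjusted p = 0.000280) and by 1.85 ± 0.33 at d120 (edgeR adjusted p = 1.10e-05). Per exon length it had the highest level of the 10 genes in CD4 cells, with 202 ± 27 TPM at d30 (SD, n = 5) and 178 ± 51 TPM at d120 (SD, n = 6), and in Treg with 169 ± 24 and 195 ± 69 TPM. In whole thymus, most of whose cells are T lineage cells, it was also the highest in the deposited TPM, at 193 ± 16 TPM (SD, n = 6), followed by Trp53 at 165 ± 9.6 and Cdkn1b at 121 ± 5.6 TPM, while Cdkn1c and Cdkn2b stood at 5.67 ± 2.3 and 1.16 ± 0.56 TPM. Other members are printed for whole thymus and the sorted T cells without a test. How the deposited TPM were made is not given, so the scales may differ. Gadd45a stood at 30.2 and Cdkn1a at 9.55 TPM in whole thymus. In Treg and CD4 cells at d120 the TPM computed here were 84.9 and 86.7 for Gadd45a, 51.1 and 72.3 for Cdkn1a, and 14.4 and 26.4 for Cdkn1b.

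Cdkn2c was not called between epithelium and T cells at d30 (0.79 ± 0.39, edgeR adjusted p = 0.114; called under 6 of 12 other settings) or d120 (-0.20 ± 0.37, edgeR adjusted p = 0.859). At d120 it was higher in mTEC, from 21.9 to 56.5 CPM (median 43.9 CPM), than in cTEC, from 0 to 20.5 CPM (median 14.5 CPM), by 1.87 ± 0.54 (edgeR adjusted p = 0.00894), a call lost under 3 of 12 other settings.

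Trp53 had medians at d30 of 140 CPM in cTEC, 134 CPM in mTEC, 172 CPM in Treg and 169 CPM in CD4 cells, and at d120 they were 106, 128, 148 and 120 CPM. At d30 every cTEC library (126 to 142 CPM) lay below every Treg (159 to 200.4 CPM) and CD4 library (160.5 to 238 CPM), and the ranges of all 4 populations overlapped at d120. Epithelial minus T cells came to -0.44 ± 0.19 at d30 (edgeR adjusted p = 0.0709), which was called under 4 of 12 other settings: the compared groups alone (-0.39), voom (-0.36), a shared dispersion (-0.42) and without the libraries of low depth or few genes (-0.42). Mdm2, by contrast, stood out in mTEC at d120, from 334 to 612 CPM with a median of 454 CPM, against 6.01 to 278 CPM (median 195 CPM) in cTEC, 116 to 155 CPM in Treg and 54.9 to 170 CPM in CD4 cells. mTEC and the other 3 populations did not overlap there, and mTEC exceeded cTEC by 1.58 ± 0.35 (edgeR adjusted p = 0.000937).

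Gadd45a had medians of 113 CPM in cTEC, 117 CPM in mTEC, 52.5 CPM in Treg and 68.6 CPM in CD4 cells at d30, and 222, 228, 47.9 and 50.9 CPM at d120. Epithelial cells exceeded T cells by 0.95 ± 0.35 at d30 (edgeR adjusted p = 0.0285) and by 2.16 ± 0.34 at d120 (edgeR adjusted p = 1.17e-06). In cTEC at d120 the libraries ran from 0 to 434 CPM, the 0 standing in the library with few detected genes.

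**Figure D3:**
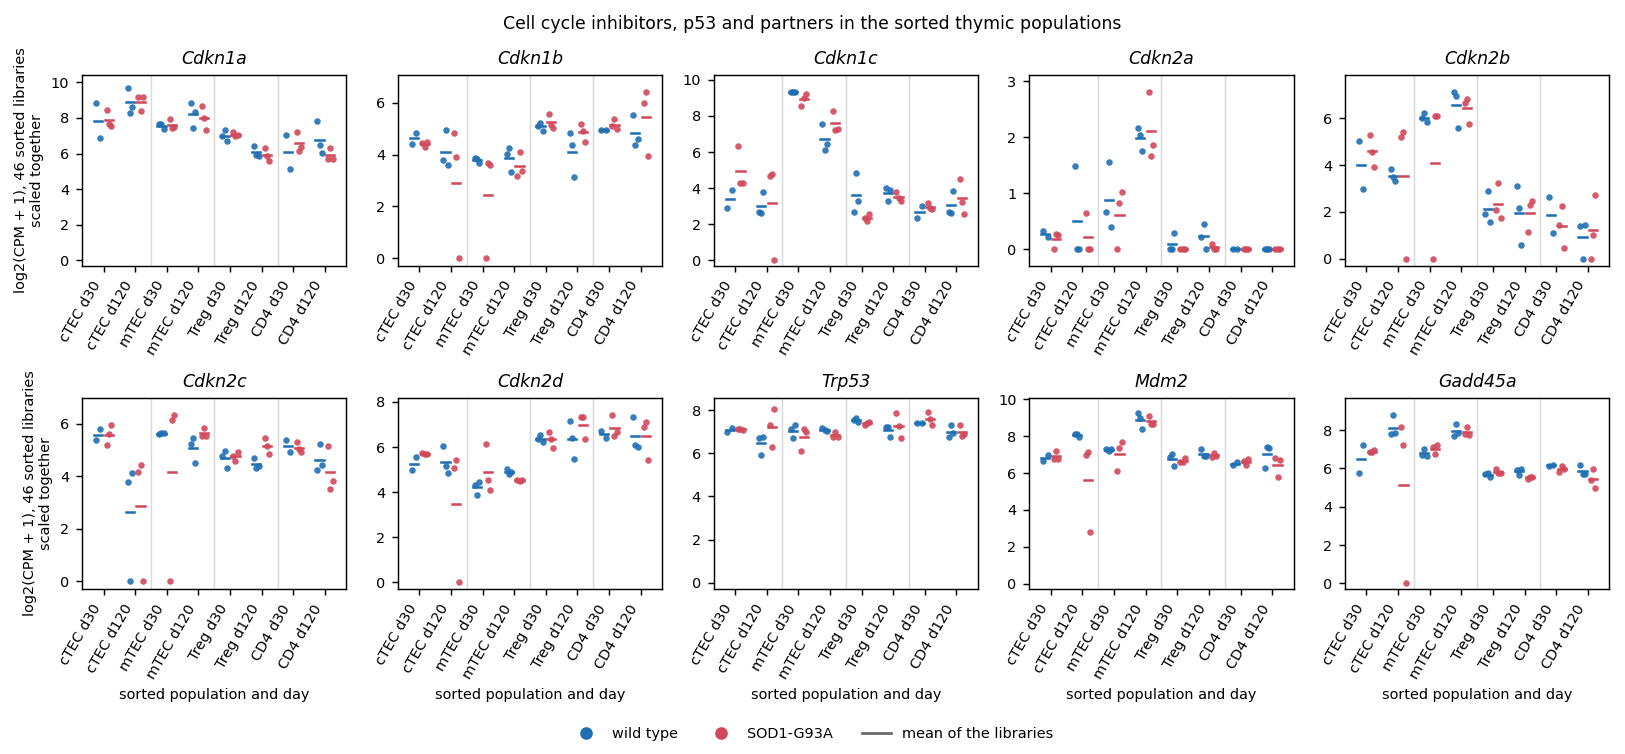
Level as log2(CPM + 1) (vertical axis) of the 10 members in the sorted cTEC, mTEC, Treg and CD4 libraries at d30 and d120 (horizontal axis), scaled over all 46 libraries, 1 point per library, blue for WT and red for SOD1-G93A, with a line at the mean of each group. Cdkn1c stands high in mTEC alone, Cdkn2d lies higher in Treg and CD4 cells, and at d30 the cTEC points of Trp53 lie below those of Treg and CD4 cells.

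Within the epithelium, mTEC differed from cTEC in 1 of 10 members at d30 (Cdkn1c), against 22.3% of genes, and in 5 at d120 (Cdkn1c, Cdkn2a, Cdkn2b, Cdkn2c and Mdm2, all higher in mTEC), against 28.7%. Genes in general stood higher in mTEC at d120 too: the median log2 difference of all genes tested was 0.025 at d30 and 0.623 at d120. The d120 call of Cdkn2a, on medians of 2.86 and 0 CPM, was lost under 5 of 11 other settings. That of Cdkn2b was lost under 3 of 12 (edgeR adjusted p = 0.0508 with the compared groups alone, 0.0773 and 0.127 without the libraries numbered 1 or 2). Cdkn1a was called lower in mTEC at d120 by DESeq2 (-0.85, DESeq2 adjusted p = 0.0271) and with median-of-ratios scaling (-0.85, edgeR adjusted p = 0.0383). Within the T cells, 0 of 10 members were called between Treg and CD4 cells at d30 or at d120 by edgeR, against 0.856% and 5.25% of genes. None of the 10 reached an unadjusted p under 0.05 at either day, when 1751 and 3956 genes did. DESeq2 called Cdkn1b at d120 (-1.14, DESeq2 adjusted p = 0.0356) and limma's voom with quality weights called Cdkn2b there (1.98, limma adjusted p = 0.0494). The largest Treg minus CD4 values at d120 that rest on counts in most libraries were 1.27 ± 0.81 for Cdkn2b and -0.80 ± 0.50 for Cdkn1b. The median of all genes there was 0.438.

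The population samples were not pure, and age and population moved other markers too. The summed level of 5 T cell markers ran from 641 to 1043 CPM in cTEC at d30 and from 83.3 to 174 CPM at d120, from 92.7 to 344 CPM and from 43.0 to 110 CPM in mTEC, and from 2872 to 3435 CPM in CD4 cells at d30. The summed level of 3 epithelial markers ran from 83.5 to 200 CPM in Treg at d30 and from 3571 to 10031 CPM in cTEC at d30. From d30 to d120 the summed level of 7 mTEC markers in cTEC went from 1081 to 2053 CPM (median 1720 CPM) to 1622 to 7613 CPM (median 6115 CPM), and that of 7 cTEC markers there from a median of 19598 CPM to one of 7627 CPM. The part of such RNA from other cells in these levels, and in the mTEC and cTEC difference at d120, was not tested.

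Among the pathway lists, 10 of 20 p53 targets were higher in epithelium than in T cells at d120 and 2 lower, led by Perp, a junction and apoptosis gene (5.43 ± 0.31), and Phlda3 (7.05 ± 0.39). Of 20 S phase and mitotic genes, 11 were lower in epithelium at d30 and 19 at d120, with medians of -1.31 and -1.85 against 0.31 and 0.18 for all genes. Among all genes tested, 20.6% were higher and 22.6% lower in epithelium at d120, and 12% were lower at d30.

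The genes whose group means followed each member most closely over the 16 sorted groups were found among 15200 genes by Pearson's r of mean log2(CPM + 1), given as a description. The groups share libraries between members. For Cdkn1c they were Unc93a2 (0.987), Gpr176 (0.985) and Oas1e (0.985), and for Cdkn2b Selenom (0.990), Col16a1 (0.977) and Pcdh7 (0.977). Cdkn2d went with Pcna (0.961), the sliding clamp of DNA replication, Atp1b3 (0.956) and Limd2 (0.955). Cdkn1a went with F3 (0.947), Lcn2 (0.938) and Adam28 (0.938), and Cdkn1b with Ccdc38 (0.967), Smc3 (0.955) and Rsl24d1 (0.948). For Cdkn2c they were Procr (0.939), Adam23 (0.938) and Csf2rb (0.935), and for Gadd45a Plscr1 (0.941), Cfap69 (0.913) and Arc (0.904). Mdm2 went with Itga2b (0.913), Fam221a (0.911) and Atp6v0b (0.902), and Trp53 with Ptma (0.906), Mast3 (0.903) and B3galnt2 (0.903).

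Members called with age were found in mTEC and Treg. Comparing d120 with d30 over both genotypes, Cdkn1c fell and Mdm2 and Gadd45a rose in mTEC, Cdkn1a and Cdkn1b fell in Treg, and no member passed in cTEC or CD4 cells. That is 3 of 10 members in mTEC against 3.16% of 18919 genes, 2 of 9 in Treg against 29.9% of 14824, 0 of 9 in cTEC against 4.63% of 14620 and 0 of 9 in CD4 cells against 10.6% of 12479. Libraries of the days did not overlap for 4 members in mTEC (3.94% of genes), 2 in Treg (17.8%), 1 in cTEC (Cdkn2c, 11.6% of genes) and 0 in CD4 cells (12.3%). The libraries of the days also belong to separately numbered sets, so age and set cannot be told apart. In cTEC and CD4 cells, every library at d120 had fewer total counts than every library at d30. The d120 and d30 ranges were 1269529 to 3083181 and 4575299 to 16776303 in cTEC. In CD4 cells they were 837050 to 2239878 and 2346044 to 14047347. From here on CPM are scaled within a population.

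In mTEC, Cdkn1c at d30 was 370, 511 and 597 CPM in SOD1-G93A and 621, 631 and 637 CPM in WT, the 370 CPM standing in the library with 15135 counts. At d120 it was 306, 146 and 155 CPM in SOD1-G93A and 185, 69.6 and 87.7 CPM in WT. All libraries at d120 lay below all those at d30, and the log2 change was -1.89 ± 0.29 (edgeR adjusted p = 0.00252). Per exon length its level went from 757 ± 93 to 157 ± 82 TPM (SD, n = 6 each).

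Mdm2 in mTEC was 67.2, 159 and 204 CPM in SOD1-G93A and 152, 148 and 154 CPM in WT at d30, the lowest value standing in the library with 15135 counts. At d120 it was 551, 389 and 409 CPM in SOD1-G93A and 606, 513 and 339 CPM in WT, with no overlap. The log2 change was 1.58 ± 0.24 (edgeR adjusted p = 0.00240), and both the Cdkn1c and the Mdm2 call passed under all 19 other settings tried.

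Gadd45a in mTEC was 134, 105 and 149 CPM in SOD1-G93A and 102, 128 and 96.9 CPM in WT at d30, and 223, 278 and 218 CPM and 200, 328 and 233 CPM at d120. The days did not overlap, and the change was 1.06 ± 0.21 (edgeR adjusted p = 0.0151). It missed the threshold when WT replicate 1, WT replicate 3 or SOD1-G93A replicate 2 of d30 was left out, with changes of 1.03, 1.01 and 0.97 (edgeR adjusted p = 0.0676, 0.0671 and 0.0861). The 134 CPM at d30 came from the library of 15135 counts, and without that library the 3 calls remained.

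Cdkn2a in mTEC was at 0 to 1.95 CPM at d30, the 0 standing in the library with 15135 counts, and at 2.12 to 6.0 CPM at d120. Its libraries did not overlap, and the change of 1.83 ± 0.82 did not pass (edgeR adjusted p = 0.287). Cdkn1a changed by 0.66 ± 0.28 (edgeR adjusted p = 0.249), Cdkn2b by 0.62 ± 0.34 (edgeR adjusted p = 0.411) and Trp53 by -0.05 ± 0.21 (edgeR adjusted p = 0.960), each with overlapping libraries.

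The relatives of Gadd45a rose in mTEC as well, Gadd45b by 2.01 ± 0.22 (edgeR adjusted p = 0.000261) and Gadd45g by 1.78 ± 0.22 (edgeR adjusted p = 0.000654). Of 20 p53 targets 2 rose and none fell, Plk2 by 1.44 ± 0.25 and Bbc3, which encodes the death-promoting protein Puma, by 1.71 ± 0.32, and the list's median was 0.49 against -0.08 for all genes, of which 2.09% rose and 1.06% fell. Of the 20 S phase and mitotic genes none passed (median -1.19). The summed level of 7 mTEC markers ran from 1445 to 4417 CPM at d30 and from 4545 to 9814 CPM at d120, and that of 3 epithelial markers from 1858 to 4329 CPM and from 5517 to 9374 CPM. Their part in the 3 changes was not tested.

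In Treg, Cdkn1a was 153, 142 and 140 CPM in SOD1-G93A and 130, 145 and 111 CPM in WT at d30. At d120 it was 69.4, 52.8 and 53.2 CPM in SOD1-G93A and 82.5, 65.5 and 68.2 CPM in WT, and the days did not overlap. The log2 change was -1.07 ± 0.12 (edgeR adjusted p = 5.00e-05) and passed under all 18 other settings. Cdkn1b was 49.8, 39.3 and 34.0 CPM and 34.8, 33.3 and 32.1 CPM at d30, and 31.8, 27.6 and 24.6 CPM and 26.5, 21.9 and 9.14 CPM at d120. These too did not overlap, by a margin of 32.1 against 31.8 CPM. Its change of -0.66 ± 0.23 (edgeR adjusted p = 0.0430) missed the threshold in 7 of 18 other settings, each of them with 1 library left out: any of the 3 WT replicates or SOD1-G93A replicates 1 and 2 of d30, or SOD1-G93A replicates 2 and 3 of d120. The changes there ran from -0.71 to -0.58 (largest edgeR adjusted p = 0.111, without SOD1-G93A replicate 1 of d30).

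The other members tested in Treg did not pass. Trp53 had a change of -0.30 ± 0.13 (edgeR adjusted p = 0.108), Mdm2 one of 0.27 ± 0.11 (edgeR adjusted p = 0.0868) and Cdkn2d one of 0.36 ± 0.21 (edgeR adjusted p = 0.224). Trp53 was called by DESeq2 (-0.32) and without SOD1-G93A replicate 1 of d120 (-0.45), Cdkn2d by voom (0.46) and without WT replicate 3 of d120 (0.51), and Cdkn1c without WT replicate 2 of d30 (0.98). Of the Treg pathway genes, 13 of 20 S phase and mitotic genes fell (Mcm2 by 1.06 ± 0.09, Mcm4 by 1.01 ± 0.10, median -0.80 against 0.01 for all genes, of which 16.1% rose and 13.8% fell), and of 8 G1 cyclins and kinases 5 fell and none rose. Those 5 were Ccne2 (-0.93 ± 0.15), Cdk6 (-0.61 ± 0.12), Ccnd1 (-1.16 ± 0.29), Cdk4 (-0.54 ± 0.17) and Ccnd3 (-0.33 ± 0.11, named after its value was seen). Of 19 p53 targets 3 rose and 3 fell: Bbc3 (1.73 ± 0.19), Bax (0.67 ± 0.11) and Gdf15 (4.03 ± 0.94) rose, and Trp53inp1 (-0.71 ± 0.16), Ccng1 (-1.04 ± 0.25) and Btg2 (-0.82 ± 0.29) fell, the last pair named after their values were seen. Foxo1 rose by 1.70 ± 0.13 in Treg and Foxo4 by 1.97 ± 0.40.

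The summed level of 7 markers of double-positive thymocytes in Treg ran from 1664 to 2382 CPM at d30 and from 593 to 1101 CPM at d120, that of 4 B cell markers from 31.7 to 77.2 CPM and from 112 to 349 CPM, and that of 6 Treg markers from 1215 to 1368 CPM and from 1175 to 2120 CPM. The part of other cells in the fall of Cdkn1a and Cdkn1b was not tested.

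In cTEC, Cdkn1a was 274, 155 and 157 CPM in SOD1-G93A and 395 and 95.8 CPM in WT at d30, and 532, 298 and 650 CPM and 787, 312 and 368 CPM at d120. The days overlapped, and the change of 1.17 ± 0.45 did not pass (edgeR adjusted p = 0.173). It was the only member of 9 at an unadjusted p under 0.05, as were 2616 genes, and DESeq2 called no member. Voom called Cdkn1a (1.28, limma adjusted p = 0.0489) and Mdm2 (0.83, limma adjusted p = 0.0475). Mdm2 ran from 85.6 to 113 CPM at d30 and was 118, 128 and 6.75 CPM in SOD1-G93A and 265, 274 and 237 CPM in WT at d120. Gadd45a ran from 46.7 to 121 CPM at d30 and was 269, 136 and 0 CPM and 207, 433 and 215 CPM at d120. In both genes the library with 7627 detected genes lay below all others, and the remaining 5 at d120 lay above all those at d30. The changes were 0.63 ± 0.57 for Mdm2 and 1.15 ± 0.87 for Gadd45a with that library, and 0.88 (edgeR adjusted p = 0.0181) and 1.43 (edgeR adjusted p = 0.0263) without it. With it, Gadd45b (1.90 ± 0.33, edgeR adjusted p = 0.00845), Gadd45g (1.71 ± 0.38, edgeR adjusted p = 0.0254), Plk2 (2.50 ± 0.45, edgeR adjusted p = 0.00942) and Perp (1.39 ± 0.30, edgeR adjusted p = 0.0221) were higher at d120. Cdkn2c in cTEC had a change of -1.92 ± 0.99 (edgeR adjusted p = 0.341), and its libraries at d120 all lay below those at d30. The T cell and cTEC markers of cTEC had lower sums at d120 and the mTEC markers higher ones, as given above, and their part was not tested.

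In CD4 cells no member was called by edgeR, DESeq2 or voom, none reached an unadjusted p under 0.05, and 3525 genes did. The largest values among the 9 tested were 0.93 ± 0.61 for Cdkn1c, 0.57 ± 0.41 for Cdkn1b and 0.53 ± 0.31 for Mdm2. In the same comparison 16 of the 20 S phase and mitotic genes fell, with a median of -1.63, against 5.92% of all genes, and Gadd45b rose by 1.61 ± 0.38 (edgeR adjusted p = 0.0191). In CD4 cells the summed level of 7 markers of double-positive thymocytes ran from 716 to 1429 CPM at d30 and from 336 to 701 CPM at d120, and that of 7 cTEC markers from 37.6 to 175 CPM and from 19.1 to 34.0 CPM. Their part in these changes was not tested.

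**Figure D4:**
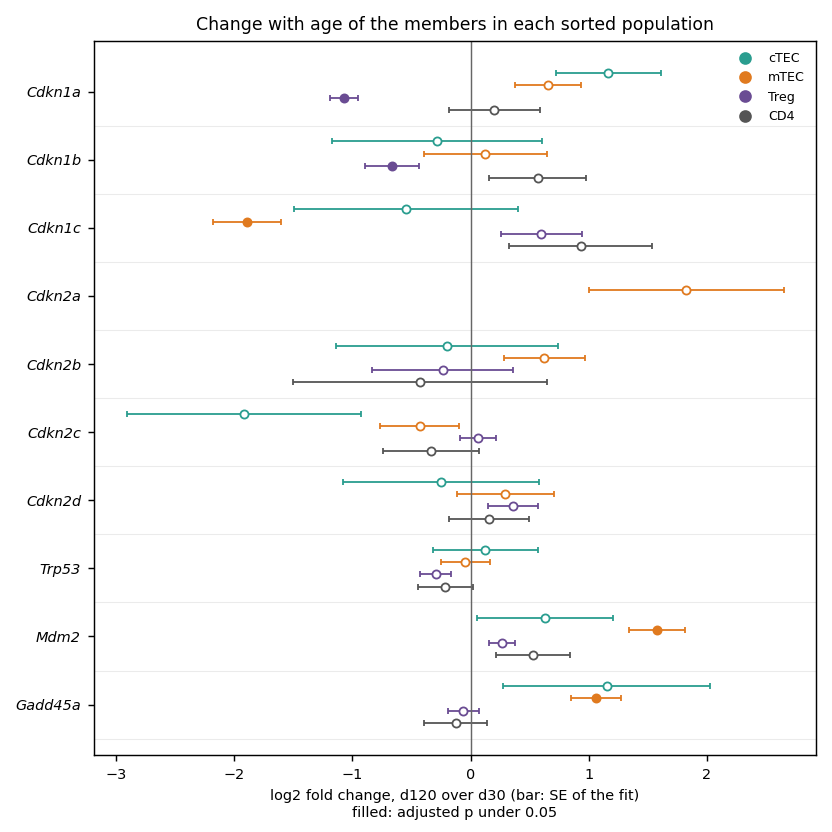
Log2 change from d30 to d120 (horizontal axis) of each tested member in cTEC, mTEC, Treg and CD4 cells, with bars of 1 standard error and filled points where edgeR's adjusted p was under 0.05. Filled points are Cdkn1c, Mdm2 and Gadd45a in mTEC and Cdkn1a and Cdkn1b in Treg.

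Whether these age changes differed between populations was tested directly, and none of 20 member tests was called by edgeR (against 2.93% of genes for mTEC minus cTEC and 0.0644% for Treg minus CD4). The Mdm2 change was larger in mTEC than in cTEC by 1.16 ± 0.51 (edgeR adjusted p = 0.243), where the median of all genes was 0.553. The Cdkn1a change was lower in Treg than in CD4 cells by 0.98 ± 0.51 (edgeR adjusted p = 0.762), where the median of all genes was 0.375. At an unadjusted p under 0.05 there were 2 such tests, Mdm2 and Cdkn2c in mTEC minus cTEC, and voom called the same 2 (limma adjusted p = 0.0371 and 0.049989).

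The SOD1-G93A genotype left no called mark on the 10 genes. Over the 13 sets of libraries (4 sorted populations at 2 days, 3 culture times, lymph node and whole thymus) 109 tests of members could be made, and 0 were called, against 0.0311% of 176708 gene tests. At an unadjusted p under 0.05 there were 4, and DESeq2 and voom called none in the sets of counts. Libraries of the genotypes did not overlap in 14 of the 109, against 10.1% of all gene tests. SOD1-G93A was higher in 5 of these and lower in 9, against 4.65% and 5.42%.

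The 4 tests with an unadjusted p under 0.05 were in Treg and in the T0 cultures. Cdkn1c in Treg at d30 had a difference, SOD1-G93A minus WT, of -1.53 ± 0.50 (edgeR adjusted p = 1). In Treg at d120 Cdkn2c had 0.56 ± 0.21 (edgeR adjusted p = 0.693) and Gadd45a -0.48 ± 0.18 (edgeR adjusted p = 0.69). Cdkn1a in the T0 cultures had -2.17 ± 0.92 (edgeR adjusted p = 0.891), on levels of 0 to 11.6 CPM where the genotypes overlapped.

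Over the sets the genotype differences lay on both sides of 0 for each of the 10 members. Trp53 ran from -0.28 to 0.97 on the log2 scale over 13 sets with a median of 0.10, higher in SOD1-G93A in 7 and lower in 6. Mdm2 ran from -1.62 to 0.24 with a median of 0.01, its lowest value coming from cTEC at d120, where 1 SOD1-G93A library had 6.75 CPM. Cdkn1b ran from -0.80 to 0.83 (median -0.01), Cdkn2d from -0.85 to 0.46 (median 0.04), Cdkn2c from -0.56 to 0.56 (median -0.0036) and Gadd45a from -1.21 to 0.62 (median -0.10). Cdkn1c, in 9 sets, ran from -1.53 to 1.85 (median 0.28), and Cdkn2b from -0.72 to 1.20 (median -0.02). Cdkn1a was lower in SOD1-G93A in 8 of 12 sets, from -2.17 to 0.24 with a median of -0.27.

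Whether a genotype difference changed with age or culture time was tested as well: edgeR called 0 of 71 such tests of members, against 0% of 84416 gene tests, 3 had an unadjusted p under 0.05, and DESeq2 and voom called none. In lymph node, where at most 894958 counts were available and 4 members could be tested, Cdkn1b ran from 48.9 to 116 CPM, Trp53 from 48.9 to 136 CPM, Mdm2 from 32.9 to 97.8 CPM and Cdkn2d from 9.68 to 48.9 CPM, and Cdkn1a, below the filter, from 6.18 to 32.6 CPM.

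**Figure D5:**
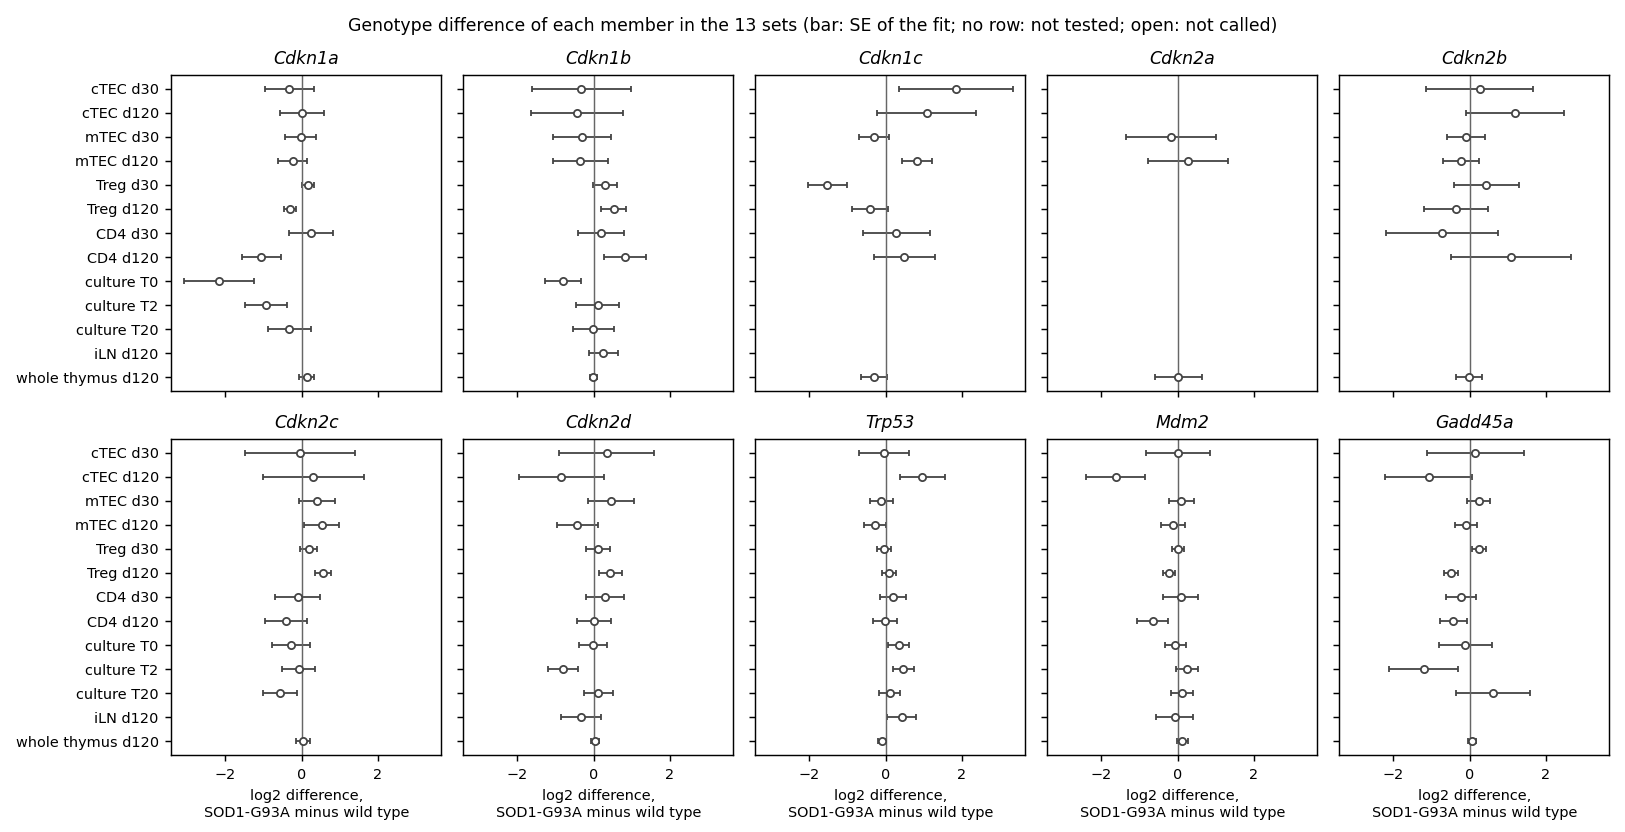
Log2 difference, SOD1-G93A minus WT (horizontal axis), of each tested member in the 13 sets of libraries (vertical axis), with bars of 1 standard error. The values lie on both sides of 0 and no point is filled, since none of the 109 tests was called.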

How the data were processed

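SMARTseq v4 low-input RNA-seq of 76 mouse libraries in 26 groups was used. The deposited tables hold gene counts for the sorted cells, cultures and lymph node, and TPM (transcripts scaled to a sum of 1000000) for whole thymus. The submitters' processing notes name mm10 and DESeq2, with no role. For aligner, counter and strand setting: not given in the sources used here. Gene IDs of the tables were joined to names through the whole thymus table, and 55094 of 55487 matched GENCODE vM21.

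Counts were tested per set with edgeR 4.0.16 in R 4.3.3 (filterByExpr by group, TMM scaling, quasi-likelihood test, Benjamini-Hochberg over all genes tested, threshold 0.05). Populations were compared in one fit of the 46 sorted libraries. Whole thymus was tested with limma 3.58.1 on log2(TPM + 1), with genes of mean TPM of at least 1. Scripts were tested on simulated data. Alternatives were DESeq2 1.42.0, limma voom with quality weights, median-of-ratios scaling, no filter, shared dispersion, the compared groups alone, a replicate block, a d120 set covariate, and low libraries left out. Each library was also left out in turn, except in the fit of the 46 sorted libraries, where all those of 1 replicate number were left out together. The limit of 8000 detected genes for a low library, and the 1 mismatch allowed in the p53 element, were chosen after seeing the data. No replicate pair agreed within sampling noise. Same-numbered Treg and CD4 libraries at d30 deviated together, with all 5 correlations of their deviations from the group means between 0.224 and 0.332, a pairing seen in the data that no label states; the replicate block changed no call there.

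The members and lists were chosen with earlier results of these data known. From each pathway list, up to 4 genes with the smallest p are named per comparison described; others are said to be named after their values were seen. Genes most like a member were ranked by Pearson's r. Promoter sequences are from RefSeq (GRCm38.p6). Protein sequences were not used here.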

Additional observations from a re-analysis of the deposited data

How the results depend on the processing

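No called member changed direction under any alternative. Counts of members called that left a factor of 1.5 of the value given were these. For cTEC with age (0 called), voom gave 2 and leaving out the library with few detected genes gave 2. For mTEC against cTEC at d30 (1 called), voom gave 6, a shared dispersion 4, the compared groups alone 4 and leaving out low libraries 2, and at d120 (5 called) the compared groups alone gave 2. For Treg against CD4 cells at d120 (0 called), DESeq2 and voom gave 1 each, and for age changes that differ between populations (0 called) voom gave 2. The cause was not tested.

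With 1 library left out at a time, counts ran from 0 to 2 in cTEC with age, 2 to 3 in mTEC, 1 to 3 in Treg and 0 to 0 in CD4 cells. They ran from 4 to 5 for T2 against T0, 4 to 6 for T20 against T0, and 0 to 0 for T20 against T2 and between genotypes. In the joint fit of the sorted cells no single library was left out, only all libraries of 1 replicate number together. Counts there ran from 1 to 1 and 2 to 4 for mTEC against cTEC at d30 and d120, from 2 to 7 and 6 to 8 for epithelial against T cells, and from 0 to 0 for Treg against CD4 cells.

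Outside Treg and CD4 cells at d30, correlations between same-numbered libraries were uneven. They ran from 0.0894 to 0.173 for Treg and CD4 cells at d120 and from 0.0532 to 0.381 for T2 and T20. For T cells with epithelium, those over 0.1 ranged from 0 of 6 (CD4 cells and mTEC at d120) to 3 of 5 (CD4 cells and cTEC at d30, highest 0.264). Correlations over 0.1 were found in 5 of 6 pairs of Treg and CD4 cells at d120, in 5 of 6 of T2 and T20, in 1 of 6 each of T0 with T2 or T20 and in 0 of 11 of cTEC and mTEC. With a replicate block, members called were 0 between genotypes, 0 in cTEC, 3 in mTEC, 2 in Treg and 0 in CD4 cells with age, 5 at T2 and 4 at T20 against T0, 0 between T20 and T2, 1 and 6 for mTEC against cTEC (at d120 with Cdkn1a at -0.78, edgeR adjusted p = 0.0407), 7 and 8 for epithelial against T cells, 0 for Treg against CD4 cells and 0 for every test of a difference between differences. Depth limits lymph node most, where 4 members could be tested, and the cultures under 300000 counts, where the call of Mdm2 was lost without them.

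Median-of-ratios scaling moved the median log2 difference of all genes by 0.27 for mTEC against cTEC at d30 and by -0.34 for Treg against CD4 cells at d120, and no member call above changed direction under it.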
